A study of Mus musculus with 72 samples.

Results

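The hepcidins and the liver genes that sense iron for them were followed in livers of *Scp2* KO mice and WT controls over 24 hours. The group was chosen by name, and on an earlier view of *Hamp2* values, and holds 10 genes: the hepcidins *Hamp* and *Hamp2*, the iron sensors *Hjv*, *Hfe* and *Tfr2*, the transferrin receptor *Tfrc*, transferrin (*Trf*), ferroportin (*Slc40a1*), and *Id1* and *Smad7* as targets of BMP-SMAD signalling. Probes were found for 9 of the 10, with 13 probes in all, out of 16593 genes and 25697 probes. *Smad7* had no probe under its name or an alias and was not analysed here. *Hamp2* was selected on its KO minus WT difference in these arrays, so its genotype difference is given as a description without a test, and the open points were whether *Hamp* and BMP-SMAD genes showed the same fall and whether it varied with time.

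Total liver RNA was hybridised to 72 Illumina mouse bead arrays, 36 of *Scp2* KO and 36 of WT mice, with 3 arrays per genotype at each of 12 Zeitgeber times (ZT) from ZT0, lights on, through ZT12, lights off, to ZT22. KO mice are described as lacking the whole *Scp2* locus, which encodes the sterol carrier protein SCP2 and the peroxisomal thiolase SCPx, and had been backcrossed into C57Bl/6. WT mice were C57Bl/6J. All were males of 10 to 12 weeks kept in 12 hours of light and 12 hours of darkness and fed only at night for 4 days, with 1 mouse per sample. Both lines came from the same supplier, and the sources used here do not say whether KO and WT were littermates.

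Hepcidin is a peptide hormone that hepatocytes release when iron is plentiful. It binds ferroportin, the exporter through which iron leaves cells, and causes its loss from the cell surface. Transferrin carries iron in plasma, HFE and TFR2 sense iron-loaded transferrin at the hepatocyte surface, and hemojuvelin (*Hjv*) acts as a co-receptor for BMP ligands that come largely from liver endothelial cells. The BMP receptors activate SMAD proteins, which switch on *Hamp*, *Id1* and *Smad7*, while IL-6 raises *Hamp* through STAT3. Mice have a second hepcidin gene, *Hamp2*, and the peptide of *Hamp* is the one known to control iron.

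Both hepcidin genes lie on the minus strand of chromosome 7 (GRCm38.p6, RefSeq), *Hamp2* at chr7:30922372-30924181 and *Hamp* at chr7:30942368-30944029, with 18186 bases between them. Their promoters are shown because these neighbouring copies had unlike KO minus WT differences. The sequences are those of the reference genome, not of these mice, and their part in the difference of *Hamp2* was not tested. Each window holds 300 bases around the RefSeq start, 5′ to 3′ on the strand of the gene, and capitals mark matches to GGCGCC, the core letters of the BMP-responsive element of human hepcidin, and to TTCNNNGAA, the letters of a STAT site. The windows are chr7:30924132-30924431 for *Hamp2* and chr7:30943980-30944279 for *Hamp*, both minus strand.
Hamp2: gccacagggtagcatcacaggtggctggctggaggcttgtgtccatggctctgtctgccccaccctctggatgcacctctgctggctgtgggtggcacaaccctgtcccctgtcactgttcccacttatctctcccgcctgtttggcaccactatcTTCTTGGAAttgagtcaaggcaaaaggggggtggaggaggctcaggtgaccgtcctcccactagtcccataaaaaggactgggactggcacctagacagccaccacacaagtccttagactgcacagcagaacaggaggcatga
Hamp: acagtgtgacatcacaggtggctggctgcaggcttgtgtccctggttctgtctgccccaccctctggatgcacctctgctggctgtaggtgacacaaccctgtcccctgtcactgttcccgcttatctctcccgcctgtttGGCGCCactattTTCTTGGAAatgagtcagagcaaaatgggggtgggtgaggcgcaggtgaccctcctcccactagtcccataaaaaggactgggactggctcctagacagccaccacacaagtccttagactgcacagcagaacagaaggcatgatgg
The aligned parts of both windows were 92.9% identical, with 276 of 297 bases the same and 21 differing. One difference fell inside a searched motif. It was G145A, counted from 1 at the 5′ end of the *Hamp* window, with the base of *Hamp* first and that of *Hamp2* last. GGCGCC, which reads the same on both strands, matched once in *Hamp* and not in *Hamp2*, and 11.9% of 32851 mouse promoter windows of this length hold it. TTCNNNGAA, also the same on both strands, matched once in each and is found in 8.3% of windows. CACGTG, the E-box that clock factors bind, matched in neither and is found in 7.15%. No match overlapped another. Of the other members, 3 (*Hfe*, *Tfr2* and *Tfrc*) are in the promoter table, and GGCGCC matched there only in 1 of the 2 windows of *Tfrc*. These are matches of letters, sequence outside the windows was not searched, and binding was not measured.

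The deposited probe intensities were corrected for background, quantile normalized and taken as log2, and a difference below is KO minus WT on this scale, so that −1 stands for 0.5 times the intensity. Median signals before normalization were 95.5 to 114 in KO arrays and 96.1 to 114 in WT arrays. Of 4 *Scp2* probes 3 were lower in KO, with means of 10.30, 5.89 and 6.0 in KO and 11.76, 12.24 and 12.93 in WT, and the fourth was dim in both. The first of these stayed bright in KO, which goes against its label if that probe reads *Scp2* alone, and the other 2 were near background. One array, of WT mice at ZT12, stood apart, with a median correlation to the other arrays of 0.964 against 0.982 for the next lowest. The column names carry a number that sorts the arrays into 3 sets per genotype of 12 arrays, 1 per time, called here KO sets 4, 5 and 6 and WT sets 6, 9 and 10. What a set was is not given in the sources used here. The paper's Results state that the RNA was collected every 2 hours on 3 consecutive days, whereas its Methods describe collection over the course of a day. Neither part links a day to a set number, so whether the sets were days of collection was not tested. No set holds both genotypes, so a difference between sets cannot be told apart from part of a difference between genotypes.

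*Hamp2* was low in KO liver at every time. Its log2 intensity had a lowest, median and highest value of 6.71, 8.12 and 10.22 in 36 KO arrays, against 8.98, 10.78 and 12.50 in 36 WT arrays. The means were 8.21 ± 0.93 in KO and 10.75 ± 0.80 in WT (SD), a log2 difference of −2.55 (SE 0.20), which is a KO level 0.171 times that of WT. In KO, 27 arrays lay below the lowest WT array and 9 above it. The lowest WT array, at 8.98, was the one of ZT12 that stood apart, and without it the difference was −2.60. The deposited signals, before any normalization, had medians of 323 in KO and 1678 in WT.

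The 3 KO arrays of *Hamp2* lay below the 3 WT arrays at 10 of 12 times. Over all genes and times, 6.57% of comparisons had all KO below all WT, and nothing is read from this for *Hamp2*, which was chosen for the contrast. At ZT2, where the difference was widest, *Hamp2* was 8.02, 7.39 and 7.12 in KO and 11.06, 10.58 and 11.56 in WT. At ZT14, where it was narrowest, *Hamp2* was 10.22, 8.83 and 7.96 in KO and 10.79, 10.36 and 10.93 in WT. The groups overlapped at ZT12, with KO values of 8.59, 9.02 and 8.07 and a lowest WT value of 8.98, and at ZT18, where 1 KO array reached 9.94 beside WT values of 10.12, 9.59 and 11.18. The 3 highest KO arrays were 10.22 at ZT14 in set 4, 10.12 at ZT20 in set 5 and 9.94 at ZT18 in set 6, all inside the range of the WT arrays over the day.

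**Figure D1:**
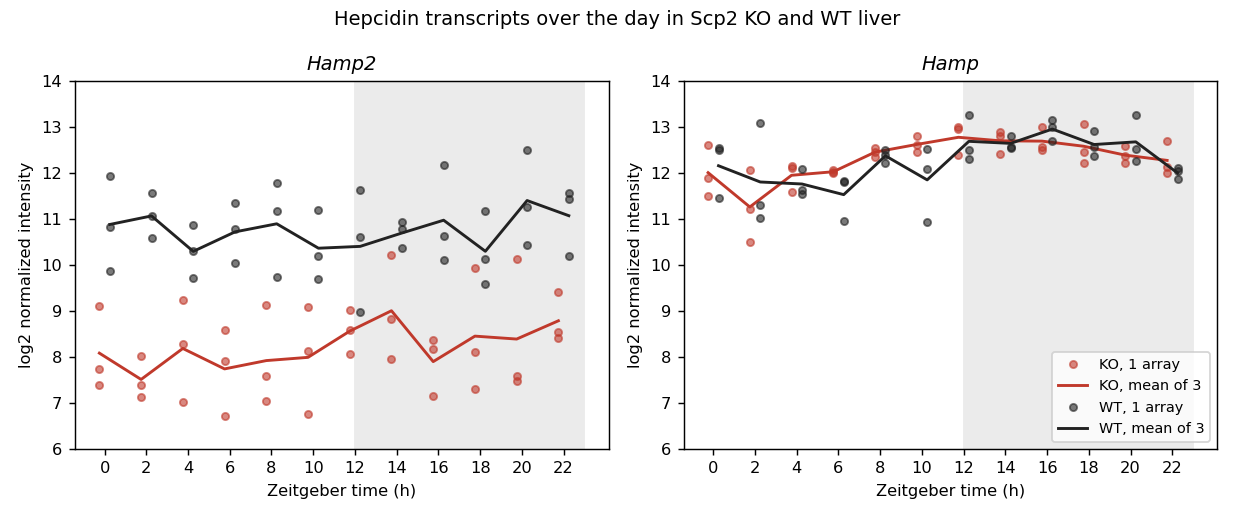
Log2 normalized intensity of *Hamp2* and *Hamp* against Zeitgeber time (h) in KO (red) and WT (black) liver, with a point per array, lines through the means of 3 arrays, and grey shading for darkness. *Hamp2* is lower in KO at all 12 times, whereas the *Hamp* values of both genotypes lie over each other and rise toward the dark phase.

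*Hamp2* had no 24-h rhythm that passed the test in either genotype. A cosine of 24 h was fitted to the 36 arrays of a genotype and tested with an F-test, adjusted over all genes. The amplitude of *Hamp2* (the height of the fitted wave above its mean) was 0.36 (SE 0.22, adjusted p = 0.605) in KO and 0.26 (SE 0.19, adjusted p = 0.714) in WT. In KO the time means ran between 7.51 at ZT2 and 9.0 at ZT14, and in WT between 10.29 at ZT4 and 11.40 at ZT20. The test for a difference in rhythm between genotypes gave an adjusted p of 0.887 (limma F-test), and 0.127% of all genes passed it. With the 12 times as separate levels the adjusted p was 0.99998, and 0.0241% of genes passed. The genotype difference of *Hamp2* ranged from −3.56 to −1.69 over the times, each with an SE of 0.74 from 3 arrays per group. Neither test showed that it varied with time, and the size of change that they could detect was not computed.

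*Hamp2* also varied between sets. Its set means were 8.50, 8.53 and 7.60 in KO sets 4, 5 and 6 and 10.35, 11.54 and 10.37 in WT sets 6, 9 and 10. Of the variation of *Hamp2* among arrays, set took 22.2% and time 21.0% in KO, and set took 50.2% and time 18.8% in WT. These shares are not adjusted for the number of levels. With 12 times and 3 sets, time would take the larger share even without any effect, so the shares of time and set are not compared. In WT the sets differed by an F-test with time in the model (limma, adjusted p = 6.78e-04), where 6.25% of genes passed, and *Hamp2* ranked 107 among them. In KO they did not pass (adjusted p = 0.339), where 0.669% of genes passed. This test was chosen after the values were seen. All 12 arrays of WT set 9 lay at or above 10.86. Leaving out 1 set in turn moved the genotype difference of *Hamp2* between −2.75 and −2.15.

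**Figure D2:**
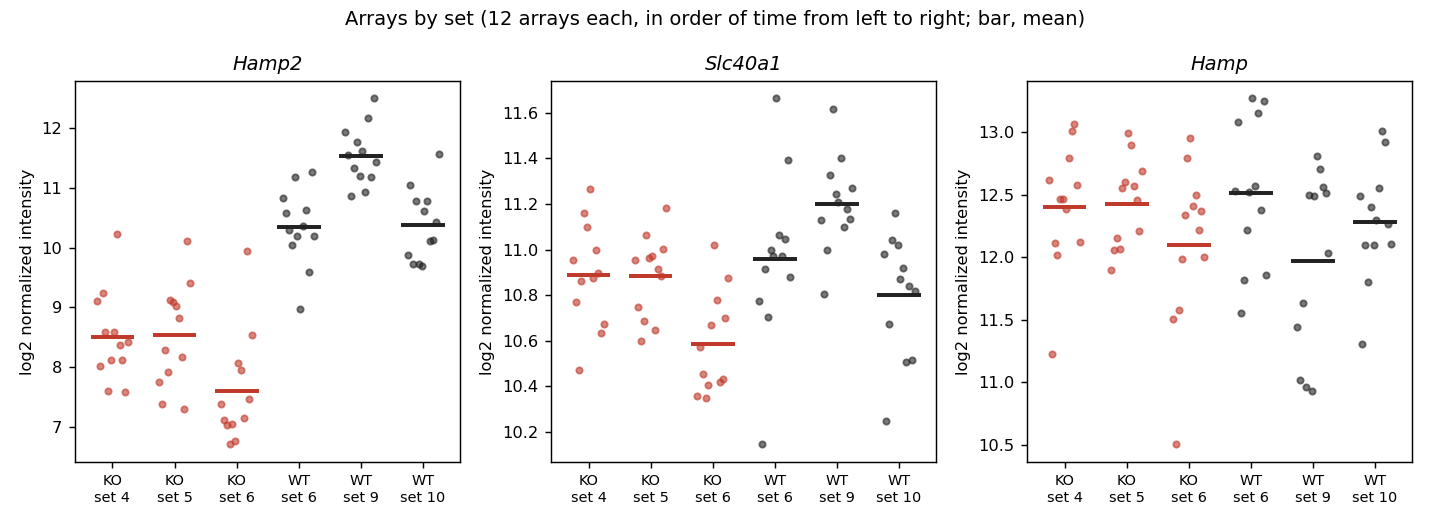
Log2 normalized intensity of *Hamp2*, *Slc40a1* and *Hamp* in the 3 KO sets (red) and 3 WT sets (black), with a point per array and a bar at the mean of 12. The set means of *Hamp2* do not overlap between genotypes, from which nothing is read, as this gene was chosen for the contrast. Those of *Slc40a1* run from 10.59 to 10.89 in KO and from 10.80 to 11.20 in WT.

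*Hamp*, the hepcidin that controls iron, did not share the fall of *Hamp2*. Its log2 intensity was 10.50 at the lowest, 12.40 at the median and 13.07 at the highest in KO, against 10.93, 12.39 and 13.27 in WT. The groups lay over each other, and only 1 KO array was below the lowest WT array. The means were 12.31 ± 0.53 in KO and 12.26 ± 0.63 in WT (SD, n = 36 each). The difference was 0.056 with a 95% interval of −0.21 to 0.32 (limma, adjusted p = 0.892), which leaves out a fall of the size seen for *Hamp2*. Over the times the *Hamp* difference was below 0 at 5 and above 0 at 7, between −0.54 at ZT2 and 0.77 at ZT10. Probe sequences were not among the files used here, so how far each hepcidin probe also binds the other transcript was not tested.

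*Hamp* did follow the day in both genotypes. Its amplitude was 0.53 (SE 0.088, adjusted p = 1.35e-04) in KO, with a peak at ZT 14.1 (SE 0.63 h), and 0.55 (SE 0.12, adjusted p = 0.00318) in WT, with a peak at ZT 16.1 (SE 0.83 h). Of all genes, 13.7% passed the rhythm test in KO and 15.8% in WT. At ZT2, near the trough, *Hamp* was 11.22, 12.05 and 10.50 in KO and 11.31, 13.08 and 11.02 in WT. At ZT16, near the peak, it was 13.01, 12.57 and 12.50 in KO and 13.01, 13.16 and 12.70 in WT. The WT array of set 6 at ZT2 was far above the other 2 arrays of that group. The peak in KO minus that in WT was −1.97 h (SE 1.04 h), and the difference in rhythm did not pass the test (adjusted p = 0.778). Time took 65.4% of the variation of *Hamp* in KO and 51.5% in WT, and set 8.47% in KO and 13.2% in WT. These shares too are not adjusted for the number of levels. The rhythm in WT did not pass without WT set 9 (adjusted p = 0.0760) or WT set 10 (adjusted p = 0.0739), with amplitudes of 0.44 and 0.59.

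Of the genes that sense iron for hepcidin, none of the 3 changed in the probe that stood for the gene. *Hjv* had means of 6.07 in KO and 6.06 in WT and a difference of 0.0067 (SE 0.021, adjusted p = 0.923), close to background at percentile 56.1 of all genes, where a change is understated. *Hfe* had a difference of 0.047 (SE 0.043, adjusted p = 0.645). The probes of *Hfe* disagreed in their call. The other, dimmer one averaged 6.66 in KO and 6.58 in WT. Its difference was 0.077 (SE 0.018, limma, adjusted p = 0.00141 over all probes), and 10.5% of probes passed. *Tfr2* had values of 9.17, 9.55 and 9.85 (lowest, median and highest) in KO and 9.39, 9.62 and 10.18 in WT. Its difference was −0.065 (SE 0.034, adjusted p = 0.261), and it passed without WT set 6 (−0.10, adjusted p = 0.0386).

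Among the 8 genes other than *Hamp2*, 2 were lower in KO and none was higher, where 12.3% of all genes passed, 6.38% lower and 5.93% higher. Both are genes of iron transport, and their differences were small beside that of *Hamp2*. *Trf* had values of 13.68, 13.99 and 14.13 in KO and 13.89, 14.17 and 14.29 in WT, and its mean was lower in KO at 12 of 12 times. Its difference was −0.17 (SE 0.024, limma, adjusted p = 8.54e-08), a KO level 0.890 times that of WT. The *Trf* probe was among the 24 brightest on every array, where quantile normalization leaves few distinct values, here 19 over 72 arrays. The deposited signals of *Trf*, before normalization, had medians of 16104 in KO and 18971 in WT, and with median scaling the difference was −0.23. The set means of *Trf* did not overlap, at 13.94 to 14.05 in KO and 14.13 to 14.21 in WT. The share of all genes with set means apart, or with a lower KO mean at every time, was not computed, so neither is read as particular to *Trf*. An exact permutation test over the 6 set means gave p = 0.1, two-sided, the smallest that its 20 splits allow, so that no gene could pass 0.05. The same exact test, run for 8 genes, gave p = 0.4 for *Slc40a1* and 0.2 to 0.8 for the others, and 0.667 for *Trf* after adjustment over the 8.

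*Slc40a1* had values of 10.35, 10.82 and 11.27 in KO and 10.15, 10.999 and 11.66 in WT. Its mean was lower in KO at 11 of 12 times, a count for which no share of all genes was computed. The genotypes overlapped widely, with 6 WT arrays above the highest KO array and no KO array below the lowest WT array. The difference was −0.20 (SE 0.067, adjusted p = 0.0337), a KO level 0.870 times that of WT. It rested on single sets: without KO set 6 it was −0.10 (adjusted p = 0.528) and without WT set 9 it was −0.093 (adjusted p = 0.550). It also did not pass with median scaling (−0.22, adjusted p = 0.0794) or without the WT array that stood apart (−0.18, adjusted p = 0.0545). The sets of *Slc40a1* differed within KO (limma F-test, adjusted p = 0.0320) and within WT (adjusted p = 0.00933). KO set 6 and WT set 9 were also the lowest and the highest sets of *Hamp2*. In bulk liver, fewer cells of a type and less RNA per cell cannot be told apart. Of 12 Kupffer cell markers, which mark macrophages that express ferroportin, 10 were measured. Their summed intensities were 2277 to 4014 (median 2979) in KO and 1848 to 5390 (median 2677) in WT. None of the 10 passed in either direction (limma, adjusted over all genes), where 6.38% of all genes were lower and 5.93% higher in KO. Without KO set 5, WT set 9 or WT set 10, 1 was higher. The part of these cells in the difference of *Slc40a1* was not tested.

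**Figure D3:**
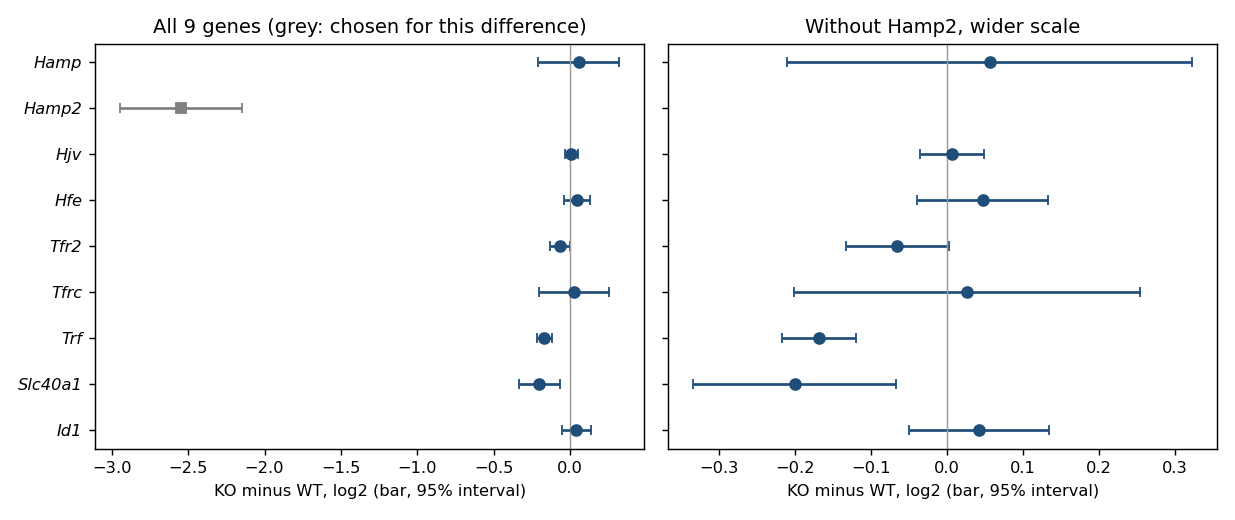
KO minus WT on the log2 scale with 95% intervals (n = 36 arrays each) for the 9 measured genes, at left all of them and at right without *Hamp2* on a wider scale. *Hamp2*, in grey, lies at −2.55, and the other 8 lie between −0.20 and 0.06, with *Trf* and *Slc40a1* below 0. Because *Hamp2* was chosen for this difference, its interval is a description and not a test.

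*Tfrc*, which takes up transferrin-bound iron, had no genotype difference that passed (0.026, 95% interval −0.20 to 0.25, adjusted p = 0.948) and a marked rhythm. Its amplitude was 0.41 (SE 0.082, adjusted p = 0.00161) in KO with a peak at ZT 19.7 (SE 0.77 h), and 0.57 (SE 0.084, adjusted p = 1.65e-05) in WT with a peak at ZT 18.9 (SE 0.56 h). At ZT8, the trough, *Tfrc* was 6.74, 6.72 and 7.45 in KO and 6.73, 6.83 and 6.59 in WT. At ZT18 it was 8.33, 8.25 and 8.43 in KO and 8.55, 8.47 and 8.46 in WT. The arrays of these times did not overlap in either genotype. Both times were picked as the lowest and highest of the 12 means, so nothing is read from this. Its other probe had a genotype difference of 0.044. The difference in rhythm had an adjusted p of 0.835, and the rhythm in KO did not pass without KO set 4 (amplitude 0.39, adjusted p = 0.0539).

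*Id1*, an inhibitor of basic helix-loop-helix factors and a BMP-SMAD target, did not fall with *Hamp2*. Its values were 6.10, 6.38 and 6.82 in KO and 6.02, 6.32 and 6.99 in WT, and its difference was 0.042 (SE 0.046, adjusted p = 0.720). The deposited signals of *Id1* had medians of 123 in KO and 122 in WT, where the medians of whole arrays reached 114. This is near background, where a change is understated. In WT it was rhythmic, with an amplitude of 0.18 (SE 0.039, adjusted p = 0.00230) and a peak at ZT 12.6 (SE 0.80 h). In KO the amplitude was 0.10 (SE 0.043, adjusted p = 0.305). The difference between these rhythms did not pass (adjusted p = 0.808), so the rhythm is not shown to differ. Without WT set 10 the rhythm of *Id1* in WT did not pass either (adjusted p = 0.0847). Rhythms of *Hjv*, *Hfe*, *Tfr2*, *Trf* and *Slc40a1* did not pass in KO or in WT.

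**Figure D4:**
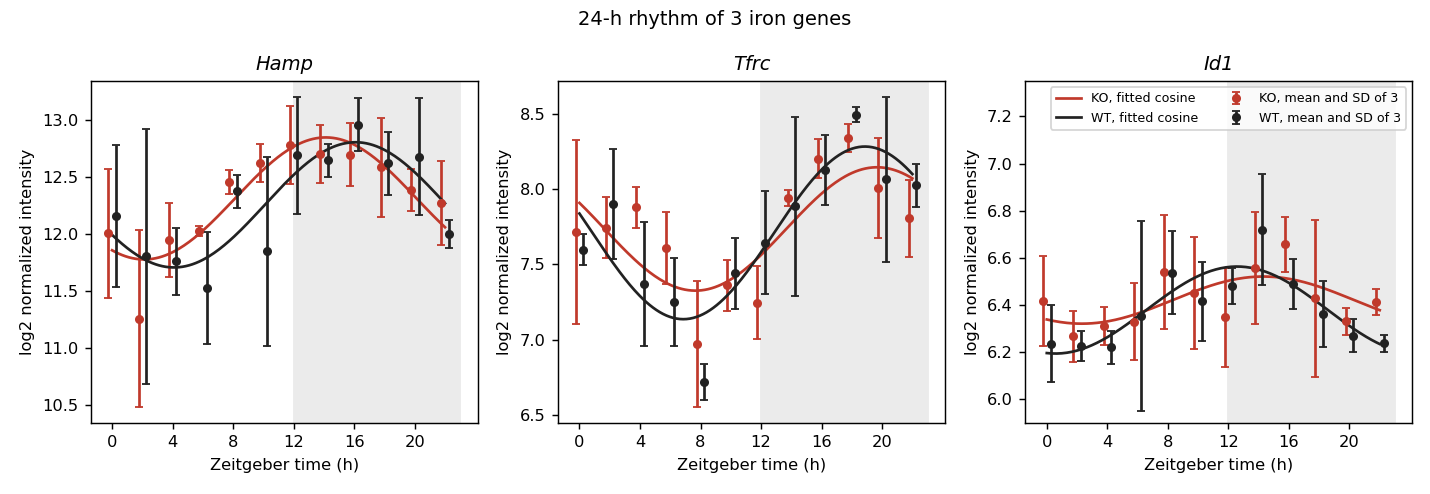
Log2 normalized intensity of *Hamp*, *Tfrc* and *Id1* against Zeitgeber time (h) in KO (red) and WT (black), as means with SD of 3 arrays and the fitted 24-h cosine, with darkness shaded. *Hamp* peaks at ZT 14.1 in KO and 16.1 in WT, and *Tfrc* at ZT 19.7 in KO and 18.9 in WT.

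At single times the 8 genes other than *Hamp2* gave 96 comparisons of 3 KO with 3 WT arrays. None passed after adjustment over all genes (limma, lowest adjusted p = 0.155), 12 had an unadjusted p below 0.05, and 0.864% of such comparisons passed over all genes and times.

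Across arrays of 1 genotype, *Hamp2* was set against each of the other 8 genes, 16 relations of 36 arrays each, with permutation tests adjusted over the 16. None passed, although that with *Slc40a1* in KO did under median scaling (r = 0.56, permutation adjusted p = 0.0064). The strongest in KO was with *Slc40a1* (Pearson r = 0.41, p = 0.012, adjusted p = 0.194; Spearman rho = 0.48, adjusted p = 0.0582), and r was 0.40 without the 2 arrays farthest from the median of *Hamp2*. With *Hamp* it was r = 0.32 (adjusted p = 0.305) in KO and r = −0.24 (adjusted p = 0.646) in WT. After the mean of each time was taken off, 4 relations had an adjusted p below 0.05. These were with *Hfe* (r = 0.46) and *Slc40a1* (r = 0.45) in KO and with *Hamp* (r = −0.46) in WT, each with a permutation adjusted p of 0.0360, and with *Id1* (r = −0.43, permutation adjusted p = 0.0388) in WT. The corresponding rho values were 0.47, 0.51, −0.47 and −0.42, with adjusted p of 0.0222 for the first 3 and 0.0434 for *Id1*. By rho the relation with *Slc40a1* in WT was also below 0.05 (rho = 0.41, permutation adjusted p = 0.0434), and by r it was not (r = 0.39, permutation adjusted p = 0.0600). Without the 2 farthest arrays the r of the 4 relations were 0.51, 0.55, −0.41 and −0.42. The permutations shuffled the 36 deviations freely, although taking off the time means leaves fewer free values. Their p-values are therefore too small, and no relation is called from them.

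These relations did not hold within sets. With the means of set and time both taken off, r in KO was 0.21 with *Hfe* and 0.12 with *Slc40a1*. In WT it was −0.16 with *Hamp*, −0.16 with *Id1* and −0.24 with *Slc40a1*. The permutation adjusted p of these ran from 0.829 to 0.836. Only the relation with *Tfr2* in KO then had an adjusted p below 0.05 (r = −0.50, permutation adjusted p = 0.0246), and its rho did not (rho = −0.46, adjusted p = 0.0806). Permutation p-values of these deviations are too small for the same reason, so this relation is not called either. Within single sets of 12 arrays, r of *Hamp2* with *Hamp* was 0.14, 0.45 and 0.16 in KO sets 4, 5 and 6 and 0.04, 0.25 and −0.41 in WT sets 6, 9 and 10. Differences between these r were not tested.

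**Figure D5:**
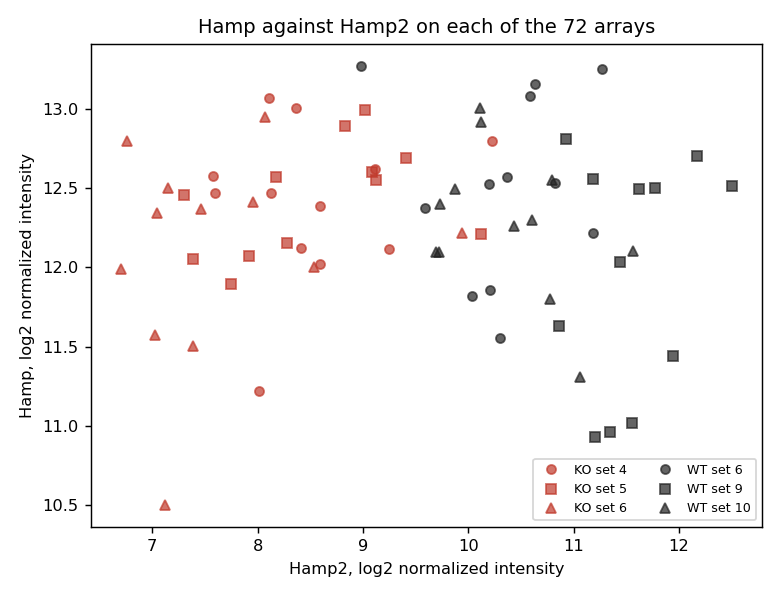
*Hamp* against *Hamp2* (both log2 normalized intensity) on each of 72 arrays, with KO in red, WT in black and a symbol per set. KO arrays lie at lower *Hamp2* and over the same range of *Hamp* as WT arrays, from 10.50 to 13.07 in KO and from 10.93 to 13.27 in WT.

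The genes around the members were read from lists chosen with earlier results of these data known, and each count is to be set beside the 6.38% of all genes that were lower and the 5.93% that were higher in KO. In the BMP-SMAD list, 21 of 22 genes were measured, of which 3 were lower in KO and 1 was higher, with a median difference of 0.0027 beside −0.00028 over all genes. *Tmprss6*, a protease that cuts hemojuvelin and so restrains hepcidin, was 8.66 ± 0.12 in KO and 8.84 ± 0.16 in WT (difference −0.18, SE 0.033, adjusted p = 1.13e-05). *Smad4*, the shared partner of the SMAD proteins, had a difference of −0.12 (adjusted p = 0.00732), and *Fst*, which binds activins, one of −0.095 (adjusted p = 0.0243). *Id2*, a relative of *Id1*, was higher at 8.12 ± 0.36 in KO and 7.81 ± 0.41 in WT (difference 0.31, SE 0.090, adjusted p = 0.00965). *Tmprss6* passed under all 15 alternatives, *Id2* under 13, and *Smad4* and *Fst* under 12 each. Without WT set 6 only 1 gene of the list was lower, and *Fst* was at −0.033, and without KO set 5 or WT set 10 none was higher. *Smad6*, *Id3* and *Atoh8*, further targets of the pathway, had differences of 0.012, 0.010 and 0.0043, none past the test. Of these, *Atoh8* was close to background at percentile 56.2 of all genes, where a change is understated. Of the list 8 genes were dim, with a mean below the median of all genes, among them the ligands *Bmp2* and *Bmp6*.

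Of 18 IL-6 and acute phase genes 4 were lower, none was higher, and the median was −0.070, beside 6.38% lower and 5.93% higher among all genes. The count of lower genes was 2 when any of KO sets 4, 5 and 6 and WT set 9 was left out. *Hpx*, the plasma carrier of heme, was 13.63 ± 0.22 in KO and 13.94 ± 0.11 in WT (−0.30, SE 0.041, adjusted p = 8.55e-09), and *Crp* had a difference of −0.20 (adjusted p = 2.91e-05). *Saa3* (−0.31, adjusted p = 0.0181) and the receptor *Il6ra* (−0.19, adjusted p = 0.0288) passed under 11 and 10 of the 15 alternatives. *Socs3*, the feedback inhibitor that STAT3 induces, had a difference of −0.059 (adjusted p = 0.879).

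Among 20 measured genes of iron storage, transport and control, 3 were lower and 1 was higher, with a median of 0.0035, beside 6.38% lower and 5.93% higher among all genes. The count of lower genes was 1 when any of KO sets 5 and 6 and WT sets 6 and 9 was left out, and without KO set 4 or WT set 6, or with median scaling, none was higher. *Cp*, ceruloplasmin, which oxidises iron for loading onto transferrin, was 10.75 in KO and 11.03 in WT (−0.28, SE 0.064, adjusted p = 6.36e-04) and passed under all 15 alternatives. *Fth1*, the ferritin heavy chain, was higher by 0.091 (adjusted p = 0.00220), a call lost with median scaling (0.045, adjusted p = 0.634). *Slc39a8*, a metal importer, had −0.070 (adjusted p = 0.0323), and *Pcbp2*, an iron chaperone, −0.15 (adjusted p = 0.0491), which passed under 3 of the 15. Without the WT array that stood apart, 2 of this list were lower and 2 higher. Of 8 genes of heme synthesis 2 were higher, *Uros* by 0.16 (adjusted p = 3.12e-04) and *Cpox* by 0.15 (adjusted p = 1.23e-04), and none was lower, where 5.93% of all genes were higher. Without WT set 6 only *Uros* passed, and *Cpox* was at 0.088 (adjusted p = 0.0554).

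The 10 measured neighbours of the hepcidin genes on chromosome 7, 5 on each side, did not move as *Hamp2* did. *Lsr*, a lipoprotein receptor, was lower (−0.31, SE 0.048, adjusted p = 6.32e-07) and *Fam187b* was higher (0.086, adjusted p = 0.0203, not passing without KO set 6 or WT set 6), and the other 8 lay between −0.055 and 0.020. *Usf2*, next to the hepcidin genes, had a difference of −0.052 (adjusted p = 0.284). The median of the neighbours was −0.00049, and 5 of them were dim.

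Cell type markers were counted in the same way, again beside 6.38% lower and 5.93% higher among all genes. Of 15 liver endothelial cell markers 6 were lower in KO and none was higher, among them *Oit3* (−0.22), *Mrc1* (−0.20), *Clec4g* (−0.19) and *Dnase1l3* (−0.14). Their summed intensity was 3494 to 4765 (median 4131) in KO and 3743 to 6868 (median 4608) in WT, and 2 of the 15 were dim. Of 7 stellate cell markers 3 were lower, *Ecm1* by −0.19, *Reln* by −0.086 and *Rgs5* by −0.084, with sums of 2807 to 4017 (median 3445) in KO and 3244 to 4843 (median 3605) in WT. Only *Ecm1* passed without WT set 6, and *Reln* passed under 10 of the 15 alternatives (−0.033, adjusted p = 0.640, without KO set 6). Of 10 hepatocyte markers 3 were lower, *Cps1* (−0.29), *Ahsg* (−0.22) and *Alb* (−0.068), and *Apoa2* was higher (0.067), with sums of 66300 to 73970 (median 70880) in KO and 66440 to 81380 (median 73940) in WT. *Apoa2* passed under 6 of the 15 alternatives (0.0040, adjusted p = 0.981, with median scaling) and *Alb* under 10 (−0.049, adjusted p = 0.328, without KO set 6). The probes of *Fabp1* and *Tat* were dim and that of *Alb* was near the middle of all genes, although liver expresses these genes strongly, so that they cannot stand for their mRNA. None of 6 blood and erythroid markers passed, with sums of 1213 to 7093 (median 2107) in KO and 1346 to 8881 (median 3442) in WT. The part of these cell types in the differences of *Hamp2*, *Trf* and *Slc40a1* was not tested.

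The genes most like *Hamp2* over the 72 arrays, after the mean of each genotype was taken off, were *Gnmt* (r = 0.66), *Gstt3* (0.66), *Lrtm1* (0.65), *Hpgd* (0.64) and *Selenbp1* (0.62). With the set means taken off as well, these r were between 0.45 and 0.53. Their genotype differences ran in both directions. *Lrtm1* was lower in KO (−0.55, limma, adjusted p = 5.49e-06), *Gstt3* (0.50, adjusted p = 1.13e-05) and *Selenbp1* (0.20, adjusted p = 2.81e-04) were higher, and *Gnmt* (−0.098, adjusted p = 0.0677) and *Hpgd* (0.22, adjusted p = 0.0726) did not pass. Those most like *Hamp* were *Ccn2* (0.63), *Man2a1*, *Gde1* and *Cask* (0.61 each) and *Hspa2* (0.60), which at 0.58 to 0.67 kept about the same r with set means off. The lists of 5 had no gene in common, and arrays share time, diet and processing, so these values are a description.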

How the data were processed

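Liver RNA was measured on Illumina mouse bead arrays. The authors deposited the intensity of each probe before normalization, with no detection p-values, and a log2 table that they deposited as normalized, in which all 72 arrays have a median of 6.69. The submitters' notes name Partek, and no settings are stated. Here the intensities were corrected with normexp (offset 50), quantile normalized and taken as log2 with limma 3.58.1 in R 4.3.3. A single gene name was known for 23978 of 25697 probes and none for the other 1719. Where a gene had several probes, as 4777 genes did, its brightest on average was used. KO and WT were compared with lmFit and eBayes, Benjamini-Hochberg adjusted over 16593 genes, and a call means an adjusted p below 0.05. A cosine of 24 h was fitted to each genotype, and differences in rhythm were tested with limma. Correlations used 100000 permutations (NumPy 2.4.6). Promoters came from RefSeq and were aligned with Biopython 1.88. The model fits were tested on simulated data with independent arrays and no differences between sets. Such data do not show how the p-values behave where sets differ. No 2 arrays held identical signals. The main comparison of KO and WT had no term for time. Its p-values therefore rest on a spread that holds differences between times of day as well as between mice. Tests at single times rest on the spread between mice of the same genotype and time. The exact test over set means rests on the spread between sets. The labels number 3 replicates per group on the log2 table only.

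The members and the lists were chosen with earlier results of these data known. The named genes are all members, from each list the called genes that differed most (at most 4), the 5 genes most like each hepcidin and their 5 measured neighbours on each side. *Id3*, *Smad6*, *Atoh8*, *Socs3*, *Bmp2*, *Bmp6*, *Fabp1* and *Tat* were named for their roles after their values were seen. Alternatives were the authors' log2 values, no background correction, median scaling, removal of dim probes before choosing 1 per gene (leaving 9254 genes), every probe on its own, time as a factor, sets or replicate numbers as a block, and leaving out the outlying WT array or 1 set of 12 arrays at a time. The tests of sets and the values centred on sets were added after the data were seen.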

Additional observations from a re-analysis of the deposited data

How the results depend on the processing

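The difference of *Hamp2* was −2.75 to −2.15 under the 15 alternatives, from which nothing is read, as this gene was chosen for the contrast. *Trf* passed under each, and *Hamp* passed under none. With median scaling 611 genes were higher in KO, 1293 were rhythmic in KO, 4 differed in rhythm, 582 comparisons passed at single times, 1 relation of *Hamp2* passed (with *Slc40a1* in KO), r with *Tfr2* in KO was 0.26 and the *Slc40a1* difference was −0.22. Genes that differed in rhythm numbered 34 with the filter on dim probes, 37 without the outlying WT array, 4 with 12 separate times and 119 with the replicate block, against 21 as reported. Without that array *Slc40a1* was at −0.18. The cause of these changes was not tested. Relations of *Hamp2* past the threshold were 4 on deviations from time means and 1 on deviations from set and time means, where r was −0.078 with *Hamp* in KO and −0.24 with *Slc40a1* in WT. The p-values on deviations are too small, so these relations are not called.

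The labels tie replicate numbers to the log2 table only, so the block was fitted there. Of 36 same-numbered pairs 23 had a correlation of deviations over 0.1 (−0.11 to 0.34, median 0.129). Not every pair did, so the numbers were not taken to pair the samples, although many deviated together. With the replicate block 1299 genes were higher and 1399 lower in KO, against 974 and 1052 on the same values without it, *Hamp* differed by 0.055, *Slc40a1* by −0.20 and *Trf* by −0.17, and no call of a member changed. A random block for sets used the same consensus correlation of 0.0044 for every gene and changed no call of a member. A value this small leaves the fit almost as it was. The block therefore does not test the call of *Slc40a1* against the differences between its sets.

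Leaving out 1 set in turn gave differences of −0.087 to 0.19 for *Hamp*, −0.0089 to 0.023 for *Hjv*, −0.0053 to 0.061 for *Tfrc* and −0.29 to −0.093 for *Slc40a1*, the direction turning without KO set 5 or WT set 9 for *Hamp*, without KO set 5 or WT set 6 for *Hjv* and without KO set 6 for *Tfrc*. Amplitudes were 0.39 to 0.43 for *Tfrc* in KO, 0.44 to 0.61 for *Hamp* in WT and 0.18 to 0.20 for *Id1* in WT. Rhythmic genes numbered 1200 (without KO set 4) to 2273 in KO and 1571 (without WT set 9) to 2628 in WT, genes that differed in rhythm 1 (without WT set 9) to 21, and single-time calls 920 (without KO set 5) to 1857. The r of *Hamp2* was −0.0047 to 0.12 with *Hfe* in KO and −0.30 to 0.39 with *Slc40a1* in WT. Fewer arrays enter these fits. Probes near background, such as those of *Hjv*, *Id1*, *Atoh8*, *Bmp2* and *Bmp6*, understate a change. With 3 mice per genotype and time, single-time differences of *Hamp2* carry an SE of 0.74.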
